A study of Mus musculus with 2 samples.

Results

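The 9 genes described here belong to receptor signalling in the heart. Apart from the orphan receptor gene Gpr22, they are components of the systems through which autonomic nerves set the rate and force of the heart. The 9 are the receptor genes Adrb1, Adra1a, Adra1b, Chrm2 and Gpr22, the adenylyl cyclase genes Adcy5 and Adcy6, the receptor kinase gene Grk5 and the G protein regulator gene Rgs2. They are 9 of 24542 gene symbols in the deposited table, and all 9 were found there. They were chosen by symbol with the summed reads of control and knockout libraries already known, so their differences between the genotypes are given as descriptions without a test.

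The tissue was left ventricle of male C57BL/6 mice, taken 7 days after permanent tying of the left anterior descending coronary artery, a model of myocardial infarction. Every mouse of both genotypes had this injury, and the muscle sequenced was the remote part, with scar and border zone removed. One group was NRK-2 KO, in which the muscle nicotinamide riboside kinase encoded by Nmrk2 is lost, and the other was littermate control. How the allele was made is not stated in any source used. The labels list 1 sample per genotype, and the table holds 3 numbered libraries for each, called control 1 to 3 and KO 1 to 3. No label ties a library to its own animal. A p-value here reflects how far these libraries vary among themselves, and that variation may be technical.

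Norepinephrine from sympathetic nerves acts on beta-adrenergic receptors, which couple through the stimulatory G protein to adenylyl cyclase, and the cyclic AMP formed activates protein kinase A, which phosphorylates calcium channels, phospholamban and troponin I. Alpha-1 receptors act instead through Gq and phospholipase C. Acetylcholine from the vagus acts on the M2 muscarinic receptor, which lowers cyclic AMP through Gi and opens a potassium channel made of the Kcnj3 and Kcnj5 subunits. Receptor kinases such as GRK5 phosphorylate occupied receptors and switch them off, and RGS proteins shorten the active state of G proteins.

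Levels are given as CPM, a read count scaled by TMM to the depth of its library, with mean ± SD over 3 libraries, and log2 differences are knockout minus control from a fit over all genes with their standard error (SE). Depth ran from 22377348 to 33086384 counted reads per library. Nmrk2 stood at 4.79 to 15.1 CPM in the control libraries, at 0.252 and 0 CPM in KO 2 and KO 3, and at 27.9 CPM in the library labelled KO 1, which goes against its label. Every direction below therefore rests on libraries labelled knockout, and values without KO 1 are given where the main differences are described. All 15 cardiomyocyte markers were present, and their summed level ran from 66055 to 110389 CPM in control and from 41954 to 65844 CPM in knockout. The atrial genes Myl4, Myl7 and Sln summed to 435 and 357 CPM in control 1 and control 2 and to 468 CPM in KO 1, but to 2.31, 7.75 and 2.74 CPM in control 3, KO 2 and KO 3. Of the whole list of 8 atrial genes, Bmp10 was at 0 reads in all libraries, and the summed level of 931 to 2194 CPM in control and 2145 to 2993 CPM in knockout was mostly that of Pam. Summed fibroblast markers ran from 6753 to 18319 CPM in control and from 28919 to 40030.2 CPM in knockout, and macrophage and leukocyte markers from 511 to 1749 and from 1224 to 2050.2 CPM, with none of the 9 and 8 markers of these lists at 0 in all libraries.

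Gpr22 encodes an orphan receptor of heart and brain that is thought to couple to Gi. Its level was 125, 122 and 89.4 CPM in the control libraries and 28.4, 16.7 and 35.0 CPM in KO 1, 2 and 3. The lowest control library was above the highest knockout library by a wide margin, and KO 1 lay between the other knockout libraries. The mean was 112 ± 19.8 CPM in control and 26.7 ± 9.23 CPM in knockout, a log2 difference of -2.07 (SE 0.29), or 4.21-fold lower. The log2 difference was -2.12 without KO 1 and lay between -2.33 and -1.82 with each library left out in turn.

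Gpr22 (gene ID 73010) lies on chromosome 12 from 31706867 to 31713926 on the minus strand (mm10, as for all positions given), inside the gene Cog5, which is transcribed from the opposite strand. The exons of Gpr22 and Cog5 share 0 bases in GENCODE M21. Cog5, which encodes a subunit of a Golgi tethering complex, stood at 58.2 to 71.4 CPM in control and 47.5 to 56.9 CPM in knockout. No source used states if strand entered the authors' counts, and unspliced Cog5 reads over Gpr22 could not be told apart from Gpr22 reads.

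Promoter sequences are shown for the members with the lowest log2 differences, Gpr22 and Adra1b, and for Grk5, the one with the highest. Each is the 250 bases before a RefSeq transcript start (GRCm38.p6, the mm10 build), written 5′ to 3′ on the gene's strand. Capitals mark the CCAAT box, the GC box GGGCGG or the TATA box TATAAA on either strand. The start used for Adra1b is that of the transcript holding all its reads, that for Grk5 is the start of the counted transcript, and that for Gpr22 lies 43 bases from it.
Gpr22, chr12:31713884-31714133, minus strand: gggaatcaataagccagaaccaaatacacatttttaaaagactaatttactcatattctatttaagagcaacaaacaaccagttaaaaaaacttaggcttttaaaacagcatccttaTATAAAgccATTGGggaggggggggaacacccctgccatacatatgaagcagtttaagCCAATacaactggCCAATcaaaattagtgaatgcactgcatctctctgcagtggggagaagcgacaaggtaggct
Adra1b, chr11:43836490-43836739, minus strand: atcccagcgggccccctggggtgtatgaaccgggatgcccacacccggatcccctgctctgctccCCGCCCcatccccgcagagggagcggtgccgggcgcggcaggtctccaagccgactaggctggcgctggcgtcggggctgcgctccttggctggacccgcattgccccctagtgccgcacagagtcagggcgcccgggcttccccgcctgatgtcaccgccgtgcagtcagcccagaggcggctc
Grk5, chr19:60889499-60889748, plus strand: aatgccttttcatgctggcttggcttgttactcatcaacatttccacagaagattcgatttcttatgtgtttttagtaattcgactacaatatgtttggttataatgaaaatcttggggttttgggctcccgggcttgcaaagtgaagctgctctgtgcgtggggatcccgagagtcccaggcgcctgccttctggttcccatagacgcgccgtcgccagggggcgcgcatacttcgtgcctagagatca

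The upstream window of Gpr22 is 39.6% G and C and holds 1 TATAAA and 3 CCAAT matches, which 12.4% and 33.8% of 32851 promoter windows of this length hold at least once. It also holds 2 matches to CANNTG, not capitalised, which 66.2% of windows hold. That of Adra1b is 72.8% G and C and holds 1 GGGCGG match, found in 32.7% of windows. That of Grk5, at 49.6% G and C, holds none of the 8 motifs searched on both strands. These were the cyclic AMP response element TGACGTCA, its core TGACG (contained in the full element), the GATA factor motif GATAAG, the TEAD factor motif CATTCC, the E-box CANNTG, the GC box, the CCAAT box and the TATA box. The core TGACG occurs in the windows of Adrb1 (1 match) and Rgs2 (2 matches) and in 17.8% of all windows. The full element TGACGTCA is in none of the 8 windows found for 7 members and in 1.55% of all. Adra1a and Adcy6 had no entry.

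The alpha-1 receptor genes were the members with the next lowest values. Adra1b (gene ID 11548, chromosome 11, 43774605 to 43901237, minus strand) was at 34.5, 32.7 and 19.1 CPM in control and at 14.1, 6.27 and 9.97 CPM in KO 1, 2 and 3. The groups did not overlap, with control 3 nearest to the knockout libraries. The mean was 28.8 ± 8.41 against 10.1 ± 3.91 CPM, a log2 difference of -1.51 (SE 0.35), which was -1.83 without KO 1 and -0.91 without control 1 and control 2.

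All Adra1b reads were counted to variant 1, 1 of 3 annotated transcripts, whose start lies at 43836489. Adra1a (gene ID 11549, chromosome 14, 66635251 to 66771168, plus strand) was at 35.5, 33.1 and 16.4 CPM in control and at 10.4, 9.85 and 13.1 CPM in knockout. Control 3 lay close above KO 3 and far below the other control libraries. The mean was 28.3 ± 10.4 against 11.1 ± 1.77 CPM, a log2 difference of -1.35 (SE 0.30), -1.30 without KO 1 and -0.55 without control 1 and control 2.

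The reads of Adra1a were spread over 3 of its 4 annotated transcripts, a property that the choice of genes did not use. Variant 2 took 62.8%, 61.0% and 37.9% of Adra1a reads in control 1, 2 and 3 and 54.3%, 46.6% and 70.3% in KO 1, 2 and 3. The groups overlapped, and the mean share was 53.9% ± 13.9 in control and 57.1% ± 12.1 in knockout. The difference of 3.17 percentage points was smaller than the spread between libraries (two-sided exact permutation test, p = 0.7, n = 3 libraries each, the only such comparison made). The design cannot give a p below 0.1, and no source used states how reads were divided among isoforms.

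Adrb1 (gene ID 11554, chromosome 19, 56722372 to 56724862, plus strand) encodes the beta-1 receptor, the main target of norepinephrine in heart muscle. Control libraries held 19.1, 16.2 and 11.5 CPM and knockout libraries 9.05, 9.35 and 10.6 CPM. The groups did not overlap, but control 3 and KO 3 lay close together. The mean was 15.6 ± 3.86 against 9.65 ± 0.796 CPM, a log2 difference of -0.69 (SE 0.22), which was -0.65 without KO 1 and -0.24 without control 1 and control 2.

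Chrm2 (gene ID 243764, chromosome 6, 36388084 to 36524774, plus strand) encodes the M2 muscarinic receptor. Its libraries read 106, 108 and 71.0 CPM in control, against 58.0, 45.1 and 58.7 CPM in knockout. Every knockout library was below every control library. The mean was 95.0 ± 20.8 against 53.9 ± 7.69 CPM, a log2 difference of -0.82 (SE 0.20), -0.87 without KO 1 and -0.39 without control 1 and control 2. A transcript on the opposite strand, 9330158H04Rik, shares 142 exon bases with Chrm2 and was at 2.62 to 5.69 CPM in all libraries.

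**Figure D1:**
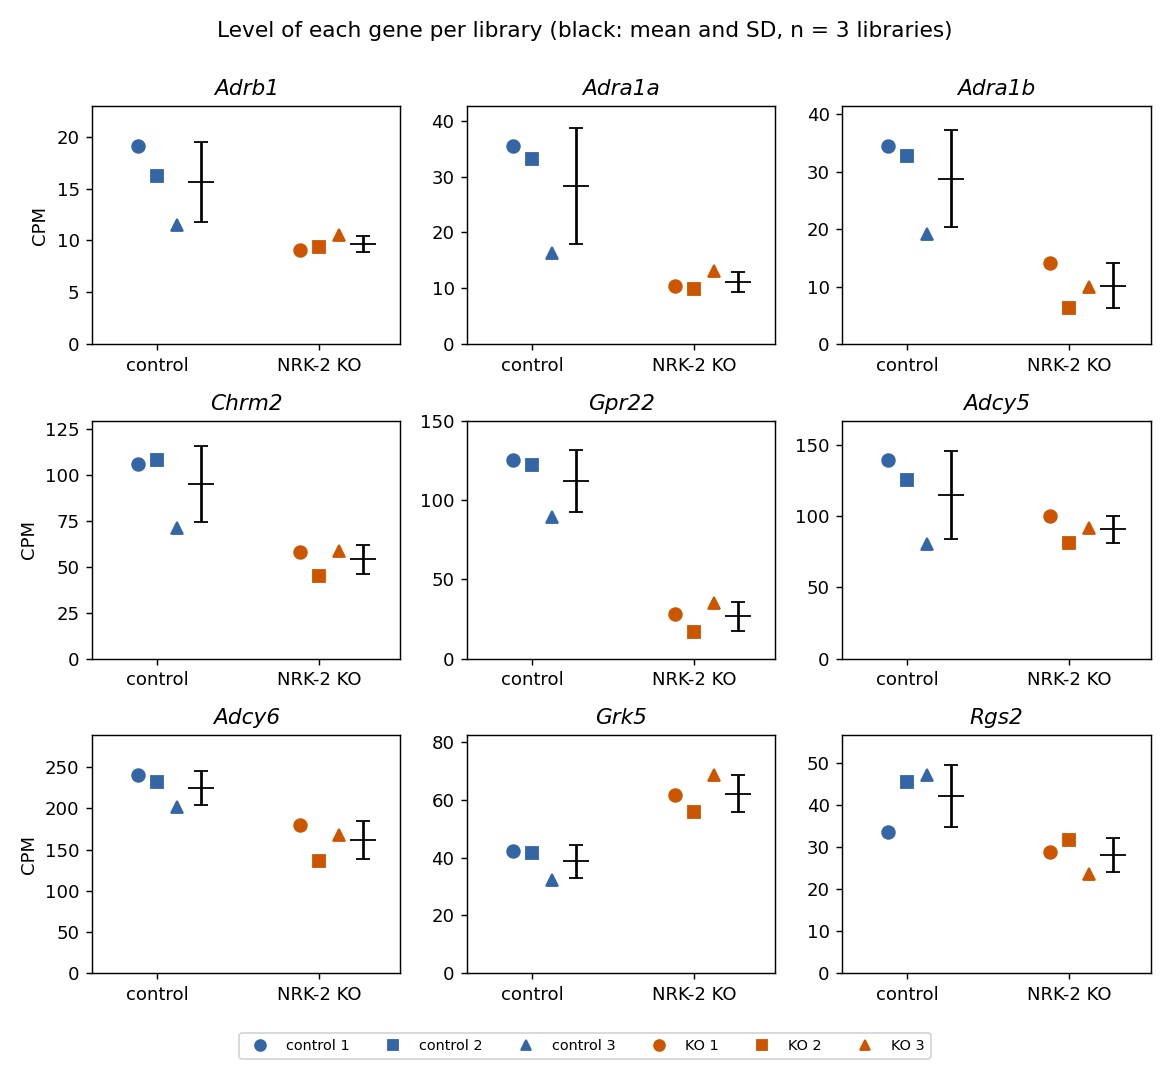
CPM of the 9 genes in each library, with control libraries in blue, libraries labelled KO in orange, a symbol for each library number, and the mean and SD of 3 libraries in black. Gpr22 has the widest gap, from 89.4 CPM in the lowest control library to 35.0 CPM in the highest knockout library, and the groups of Adcy5 overlap.

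Adcy5 and Adcy6 encode the main adenylyl cyclases of cardiomyocytes, which calcium inhibits. Adcy6 (gene ID 11512, chromosome 15, 98589986 to 98607633, minus strand) was at 241, 231 and 202 CPM in control and at 180.4, 136 and 168 CPM in knockout. The groups did not overlap, and the mean was 225 ± 20.4 against 162 ± 22.8 CPM, a log2 difference of -0.48 (SE 0.15), which was -0.56 without KO 1 and -0.31 without control 1 and control 2. An antisense transcript on the opposite strand, Gm29331, shares 605 exon bases with it in GENCODE M21 and has no row in the table.

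Adcy5 (gene ID 224129, chromosome 16, 35155636 to 35304549, plus strand) was at 139, 126 and 80.1 CPM in control and at 99.8, 80.7 and 91.4 CPM in knockout. It is the member whose groups overlapped, because control 3 lay below all knockout libraries. The mean was 115 ± 30.9 against 90.6 ± 9.56 CPM, a log2 difference of -0.34 (SE 0.22) that was -0.42 without KO 1 and turned to 0.19 without control 1 and control 2.

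Grk5 is the only member with a higher level in the knockout libraries. Its level was 42.4, 41.6 and 32.1 CPM in control against 61.7, 55.9 and 68.6 CPM in KO 1, 2 and 3. Every knockout library was above every control library. The mean was 38.7 ± 5.74 against 62.1 ± 6.38 CPM, a log2 difference of 0.68 (SE 0.15), or 1.60-fold higher, which was 0.69 without KO 1 and 0.96 without control 1 and control 2. Grk5 (gene ID 14773) lies on chromosome 19 from 60889749 to 61092555 on the plus strand.

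Rgs2 (gene ID 19735, chromosome 1, 143999338 to 144004149, minus strand) encodes a regulator that acts chiefly on Gq. Control libraries held 33.6, 45.5 and 47.1 CPM and knockout libraries 28.9, 31.6 and 23.6 CPM. Unlike the other members, its lowest control value was that of control 1, close above KO 2. The mean was 42.1 ± 7.38 against 28.0 ± 4.08 CPM, a log2 difference of -0.59 (SE 0.18), which was -0.61 without KO 1.

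Read as counts, 7 members had all control libraries above all knockout libraries and 1 had the reverse, where 14.5% and 16.4% of the 14466 genes tested had these orders (30.9% either one). In the fit over all genes (edgeR's quasi-likelihood test), 2.61% of genes were called higher and 1.09% lower at an adjusted p under 0.05 (3.7% in either direction), and 0 and 1 of the 9 members were among them. That member was Gpr22, which is no test of it, since it was chosen on these values. Without control 2, without KO 3 or with the library number as a block, 0 genes in all were called lower. The members' median log2 difference was -0.69 and that of all genes tested 0.01. Because these genes were chosen with the same contrast in view, nothing is read from these counts.

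The fitted differences of the members were set beside those of the 15 cardiomyocyte markers, all of which had a lower fitted level in knockout. These ranged from -1.27 for Ckm to -0.21 for Smpx, with a median of -0.70. Gpr22, Adra1b and Adra1a lay below the lowest marker, Grk5 lay above the highest, and Adrb1, Chrm2, Adcy5, Adcy6 and Rgs2 lay inside the markers' range. In bulk tissue, fewer cells of a type and less RNA per cell cannot be told apart.

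**Figure D2:**
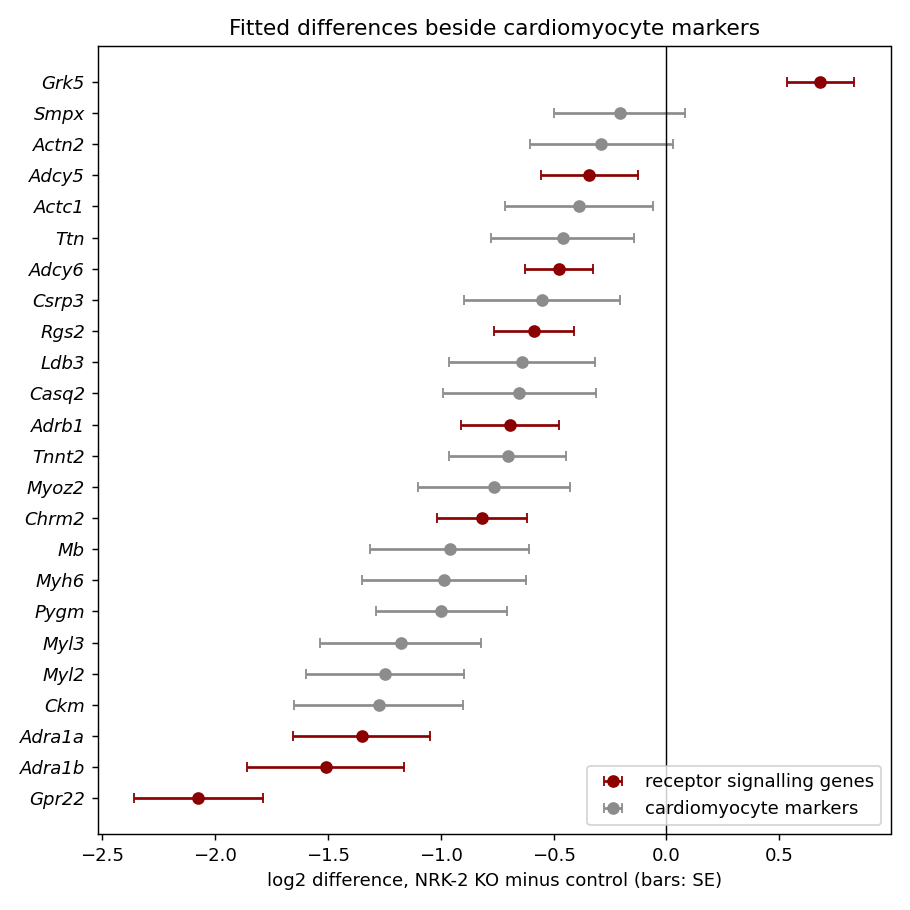
Fitted log2 difference (knockout minus control, horizontal axis) with its SE for the 9 receptor signalling genes in red and 15 cardiomyocyte markers in grey, ordered by value. Gpr22, Adra1b and Adra1a sit at the low end at -2.07, -1.51 and -1.35, below Ckm at -1.27, and Grk5 sits at the high end at 0.68.

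Each member was also divided by the summed cardiomyocyte markers of its own library. On this log2 scale, centred per gene, Gpr22 was at 0.61, 0.65 and 0.86 in control and at -0.73, -0.90 and -0.49 in knockout. The groups remained apart, with a difference of -1.41, and control 3 was then the highest library. Grk5 ranged from -0.83 to -0.49 in control and from 0.52 to 0.97 in knockout, a difference of 1.40. Adra1b and Adra1a kept separate groups, with differences of -0.83 and -0.57, although control 3 and KO 2 differed little for Adra1a (0.04 and -0.04).

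Relative to the markers, the groups of Adrb1, Chrm2, Adcy6 and Rgs2 overlapped, with differences of 0.04, -0.09, 0.23 and 0.13. Adcy5 changed direction, with a difference of 0.40 and all knockout libraries above all control libraries. The sum is dominated by a few abundant genes such as Ttn and Myh6, which moved unequally, so these ratios depend on the markers chosen.

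**Figure D3:**
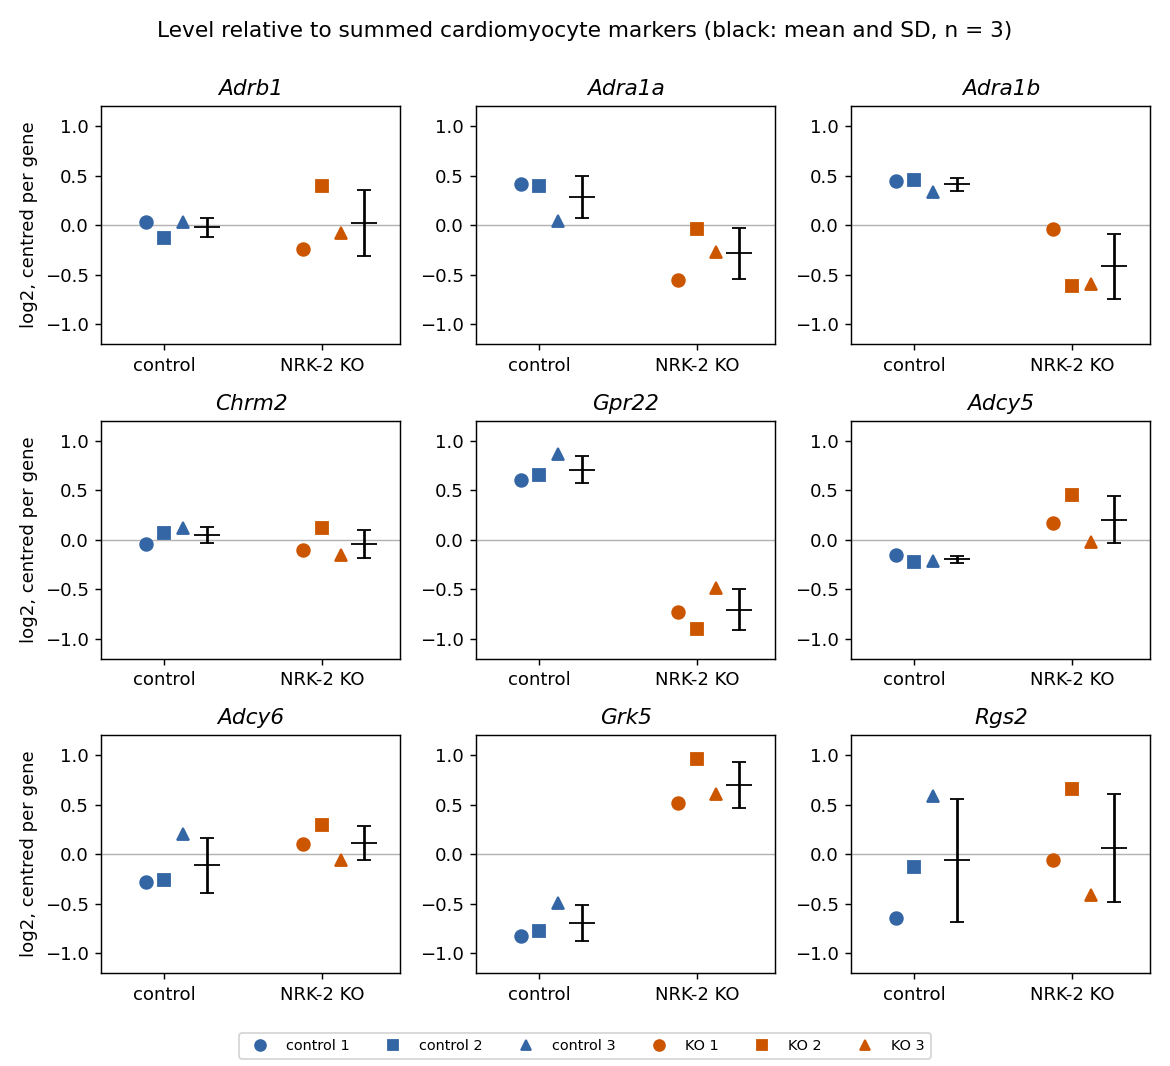
Level of each of the 9 genes relative to the summed cardiomyocyte markers of the same library (log2, centred per gene), with control in blue, libraries labelled KO in orange, and the mean and SD of 3 libraries in black. The groups of Gpr22 and Grk5 stay apart, by -1.41 and 1.40, and those of Adrb1, Chrm2, Adcy6 and Rgs2 overlap.

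Levels of different genes were compared per length, as TPM (deposited FPKM scaled to the same sum in every library). Of 75 receptor genes listed, Chrm2 had the highest mean in control, at 100.5 ± 9.70 TPM, and Gpr22 the fourth, at 53.0 ± 2.64 TPM. On this scale the control libraries of Gpr22 were close, at 55.05, 53.8 and 50.0 TPM, against 15.1, 9.92 and 19.2 TPM in KO 1, 2 and 3. Chrm2 overlapped in control with S1pr1, the sphingosine phosphate receptor of endothelium (88.3 ± 18.1 TPM), and Gpr22 with F2r, the thrombin receptor PAR1 (50.9 ± 8.39 TPM), and Aplnr, the apelin receptor (62.4 ± 9.60 TPM). In knockout Chrm2 ranked 5 at 67.5 ± 6.47 TPM and Gpr22 ranked 21 at 14.7 ± 4.63 TPM, behind F2r at 141 ± 18.7, Aplnr at 115 ± 5.21 and S1pr1 at 96.2 ± 10.7 TPM.

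In control Adra1b was at 19.2 ± 3.44, Adra1a at 14.9 ± 4.21 and Adrb1 at 13.5 ± 1.85 TPM, and their libraries overlapped. In knockout they were at 7.96 ± 2.72, 7.08 ± 0.948 and 9.91 ± 0.896 TPM, and the libraries of Adra1b and Adrb1 overlapped those of Gpr22. Within a library, Adra1a was at 0.856 to 1.24 times the TPM of Adrb1 in control and at 0.691 to 0.757 times in knockout. The ratio of Chrm2 to Adrb1 was 7.51 ± 0.681 in control and 6.86 ± 0.970 in knockout, and its libraries overlapped.

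**Figure D4:**
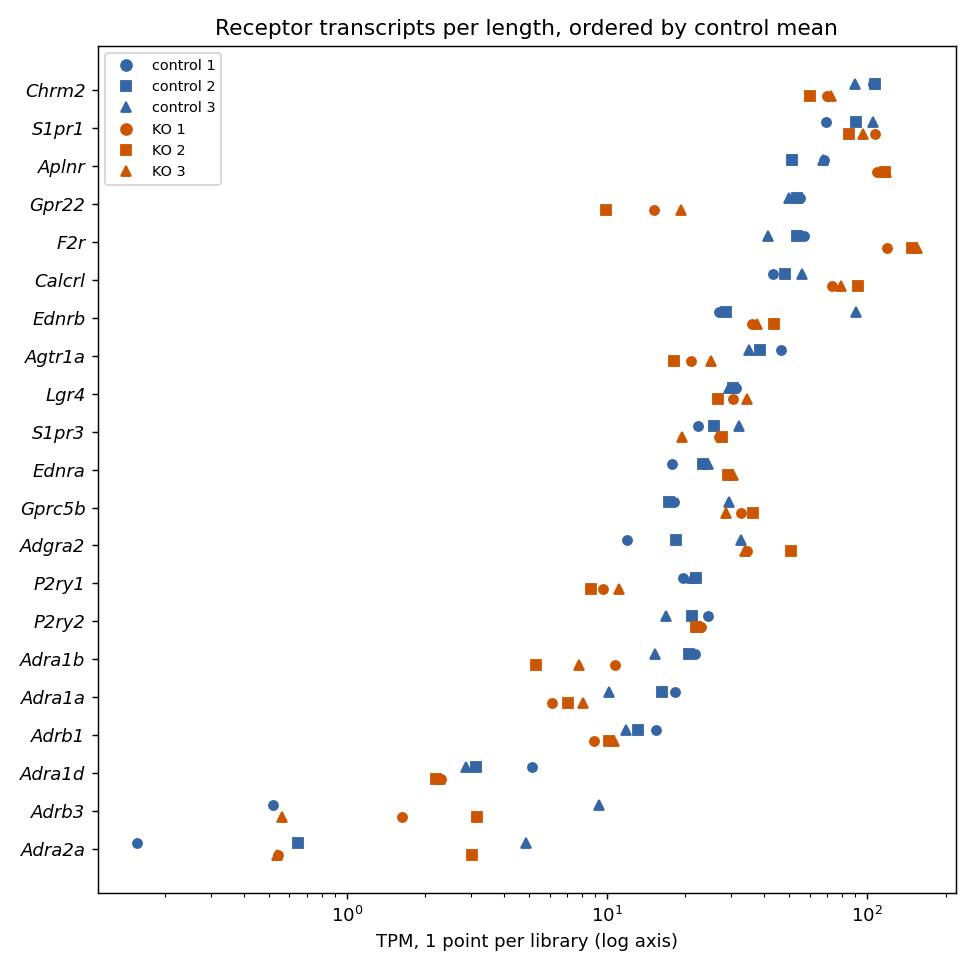
TPM (log axis) of 21 receptor genes in each of the 6 libraries, ordered by the control mean, with control in blue and libraries labelled KO in orange; values of 0, as for Adrb3 in control 2, are not drawn. Gpr22 moves from 50.0 to 55.05 TPM in control to between 9.92 and 19.2 TPM in knockout, while F2r and Aplnr lie higher in knockout.

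The other adrenergic and muscarinic receptor genes were sparse. Of the 10 listed, 6 passed the filter on low counts, and 0 rose and 0 fell by edgeR, with 0 risers and 1 faller at an unadjusted p under 0.05 and 0 of either by DESeq2 or limma. Each of the 6 had a lower fitted level in knockout (median log2 difference -0.71). Adra1d, the remaining alpha-1 receptor, was at 2.68 to 6.13 against 1.96 to 2.24 CPM (log2 difference -0.97, edgeR adjusted p = 0.169).

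The beta-3 receptor gene Adrb3 was at 0.736, 0 and 10.1 CPM in control and at 1.86, 3.28 and 0.657 CPM in knockout, and the alpha-2A receptor gene Adra2a at 0.294, 1.25 and 7.26 and at 0.863, 4.23 and 0.840 CPM. Both were highest in control 3 and next in KO 2. The 6 adipocyte markers summed to 28.4, 18.5 and 308 CPM in control and to 68.7, 118 and 0.767 CPM in knockout, with none at 0 in all libraries, so they too were highest in control 3 and next in KO 2; their part in these levels was not tested. Adra2b and Adra2c stayed at 2.65 CPM or less in every library (edgeR adjusted p = 0.524 and 0.490). Among other muscarinic genes, Chrm1 was at 0 reads in all libraries, and Chrm3, Chrm4 and Chrm5 were at or below 0.728, 0.609 and 0.0840 CPM.

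Across the 11 lists of pathway genes other than the members, 245 of 246 entries were in the table and 220 were tested. Of these 10 rose and 5 fell by edgeR, while 2.61% of all genes tested rose and 1.09% fell. The median log2 difference was -0.01, that of all genes tested being 0.01. Each of the 15 calls was lost when any library other than control 3 was left out, 0 remaining in each of these fits. With all libraries, 37 were higher and 36 lower at an unadjusted p under 0.05, and this share of all genes tested was 12.3% higher and 13.5% lower. By DESeq2 19 rose and 24 fell (7.18% and 8.33% of the genes it tested), and by limma on log2(FPKM + 1) 10 rose and 7 fell (3.48% and 1.91%).

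Among other heart receptors, 3 of 52 tested rose and 2 fell. F2r rose from 78.3 ± 21.9 to 181 ± 21.1 CPM, S1pr2, a sphingosine phosphate receptor, from 16.7 ± 3.61 to 37.2 ± 4.38 CPM, and Lpar1, a lysophosphatidic acid receptor of fibroblasts, from 28.7 ± 3.36 to 59.6 ± 7.57 CPM (edgeR adjusted p = 0.0427, 0.0334 and 0.0228). P2ry1, a receptor for ADP, fell from 35.6 ± 4.48 to 14.4 ± 2.46 CPM and Agtr1a, the main angiotensin receptor, from 42.6 ± 10.7 to 19.2 ± 3.84 CPM (edgeR adjusted p = 0.0196 and 0.0498). The summed fibroblast markers, led by Col3a1, were higher in every knockout library, as given above. Libraries of Dcn, Dpt and Pdgfra overlapped between genotypes (log2 difference 0.12, -0.08 and 0.25). Those of Col1a1, Col1a2, Col3a1, Lum, Postn and Tcf21 did not. The part of fibroblasts in the risers was not tested.

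Of 7 cyclase genes tested besides the members 1 rose and 0 fell (3 and 3 at an unadjusted p under 0.05, 2 and 1 by DESeq2). Adcy7, a cyclase abundant in leukocytes, rose from 82.2 ± 26.8 to 198 ± 23.2 CPM (log2 difference 1.27, SE 0.24, edgeR adjusted p = 0.0421). Its libraries were at 62.9, 70.8 and 113 CPM in control and 172, 208 and 215 CPM in knockout. Per length, Adcy6 led in control at 81.4 ± 4.16 TPM, before Adcy5 at 48.7 ± 7.51 and Adcy7 at 30.8 ± 14.9 TPM, whereas in knockout Adcy7 was at 83.8 ± 12.7, Adcy6 at 68.3 ± 6.17 and Adcy5 at 45.7 ± 2.49 TPM. The libraries of Adcy7 overlapped those of Adcy5 in control and those of Adcy6 in knockout. The TPM ratio of Adcy7 to Adcy6 was 0.259, 0.304 and 0.558 in control and 0.944, 1.52 and 1.27 in knockout. Leukocyte markers were highest in control 3 among control libraries, as was Adcy7; their part was not tested.

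Of the 6 other receptor kinase and arrestin genes, 0 rose and 0 fell by edgeR (1 and 0 at an unadjusted p under 0.05, 0 of either by DESeq2 or limma). The kinase gene of GRK2, listed as Adrbk1, was at 84.9 to 103 CPM in control and 73.0 to 90.2 CPM in knockout (log2 difference -0.12, SE 0.14). Per length it had the highest mean of 5 receptor kinase genes in both genotypes, with libraries that overlapped those of the next gene, at 60.1 ± 15.5 and 63.8 ± 8.84 TPM, while Grk5 was at 26.5 ± 0.503 TPM in control and 50.1 ± 3.79 TPM in knockout. The TPM ratio of Grk5 to Adrbk1 was 0.523, 0.523 and 0.333 in control and 0.731, 0.669 and 1.003 in knockout, and its groups did not overlap.

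Of 16 other RGS genes tested 2 rose and 0 fell (4 and 0 at an unadjusted p under 0.05, 2 and 0 by DESeq2). Rgs4, which acts on Gi and Gq, rose from 31.7 ± 4.73 to 59.1 ± 6.73 CPM and Rgs10 from 9.40 ± 2.26 to 20.3 ± 2.66 CPM (edgeR adjusted p = 0.0338 and 0.0434). Rgs5, a gene of pericytes, was by far the most abundant RGS gene per length, at 621 ± 31.0 TPM in control and 735 ± 80.7 TPM in knockout (log2 difference of CPM 0.01, edgeR adjusted p = 0.976). Rgs2 ranked 2 of 21 in control at 31.1 ± 8.83 TPM and 5 in knockout at 23.9 ± 4.45 TPM, and its libraries overlapped those of Rgs3 in control. Unlike in CPM, the groups of Rgs2 overlapped on this scale. Its libraries were at 22.5, 30.5 and 40.2 TPM in control and at 23.5, 28.6 and 19.7 TPM in knockout.

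Of 27 G protein subunit genes 2 rose and 0 fell (8 and 1 at an unadjusted p under 0.05, 5 and 0 by DESeq2). The beta subunit gene Gnb4 rose from 43.9 ± 3.67 to 65.8 ± 4.58 CPM (edgeR adjusted p = 0.0468). Gng8, named because it makes up the count, had 0 reads in each control library and 19, 79 and 58 in KO 1, 2 and 3. Gnas, which encodes the stimulatory alpha subunit, was the most abundant per length, at 648 TPM in control and 761 TPM in knockout on average. Its log2 difference of CPM, which edgeR tested, went the other way at -0.04 (edgeR adjusted p = 0.912).

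Downstream of cyclic AMP, 1 of 18 phosphodiesterase genes rose and 0 fell (4 and 6 at an unadjusted p under 0.05, 2 and 3 by DESeq2). It was Pde1a, a calmodulin-activated enzyme, from 18.6 ± 3.43 to 32.7 ± 2.46 CPM (edgeR adjusted p = 0.0498). Pde2a, the most abundant per length at 55.9 ± 10.4 TPM in control, did not pass (log2 difference -0.35, edgeR adjusted p = 0.175). Of 33 genes of protein kinase A, its anchors and other cyclic AMP effectors 1 rose and 0 fell (2 and 5 at an unadjusted p under 0.05, 1 and 4 by DESeq2). It was the anchor gene Akap2, from 116 ± 21.8 to 222 ± 22.8 CPM (edgeR adjusted p = 0.0409). The cyclic AMP binding protein gene Popdc2 led this list per length at 542 TPM in control (log2 difference of CPM -0.65, edgeR adjusted p = 0.261).

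Of 28 Gq effector genes 0 rose and 1 fell (3 and 3 at an unadjusted p under 0.05, 1 and 1 by DESeq2). Dgke, a diacylglycerol kinase, fell from 36.9 ± 3.21 to 24.0 ± 1.51 CPM (edgeR adjusted p = 0.0446). The phospholipase gene Plcb4 was the most abundant per length, at 47.4 TPM in control and 54.1 TPM in knockout. Its log2 difference of CPM, which edgeR tested, went the other way at -0.06 (edgeR adjusted p = 0.900).

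Each of 15 genes of protein kinase A targets and the muscarinic potassium channel had a lower fitted level in knockout, with a median log2 difference of -0.77, but 0 passed edgeR's test (0 higher and 7 lower at an unadjusted p under 0.05, 0 and 7 by DESeq2, 0 and 2 by limma). The 15 cardiomyocyte markers, with a median of -0.70, were likewise all lower, and their part in this list was not tested. Tnni3, the troponin I gene, had the highest mean of the list per length in control, at 8892 TPM, and was at 3653 TPM in knockout, below Pln, the phospholamban gene, at 3809 TPM (edgeR adjusted p = 0.0664).

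The channel subunits that act with Chrm2 were chosen for description after their values were seen. Kcnj3 was at 106, 125 and 72.8 CPM in control and at 48.9, 16.4 and 32.1 CPM in knockout (log2 difference -1.64, SE 0.40, edgeR adjusted p = 0.0706). Kcnj5 was at 107, 112 and 68.6 CPM in control and at 53.7, 28.5 and 46.3 CPM in knockout (log2 difference -1.16, SE 0.28, edgeR adjusted p = 0.0700). For both genes the groups did not overlap, and KO 1 was the highest knockout library.

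Chrm2 and these channel genes are expressed more in atrium than in ventricle, and the sum of Myl4, Myl7 and Sln differed between libraries. Stard10 went the same way, at 16.0 to 30.4 CPM where this sum was high and at 6.68 to 10.2 CPM elsewhere. Dkk3 and Pam did not, being higher in KO 2 and KO 3 than in controls 1 and 2. Upk3b was highest in control 3, at 54.9 CPM. Where the sum was high, Chrm2 was at 106 and 108 CPM in controls 1 and 2 and at 58.0 CPM in KO 1. The log2 difference was -0.90. Where the sum was low, Chrm2 was at 71.0 CPM in control 3 and at 45.1 and 58.7 CPM in KO 2 and KO 3. The log2 difference was -0.45. The same differences were -2.14 and -1.79 for Gpr22, -1.75 and -0.51 for Adra1a, -0.98 and -0.20 for Adrb1, and 0.54 and 0.96 for Grk5. For Adcy5 they were -0.43 and 0.11. Those of Adra1b were -1.27 and -1.23, of Adcy6 -0.41 and -0.40, and of Rgs2 -0.47 and -0.77. Both comparisons were chosen after the data were seen and have 1 library on a side. They cannot show what part atrial tissue had in these levels, which was not tested.

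**Figure D5:**
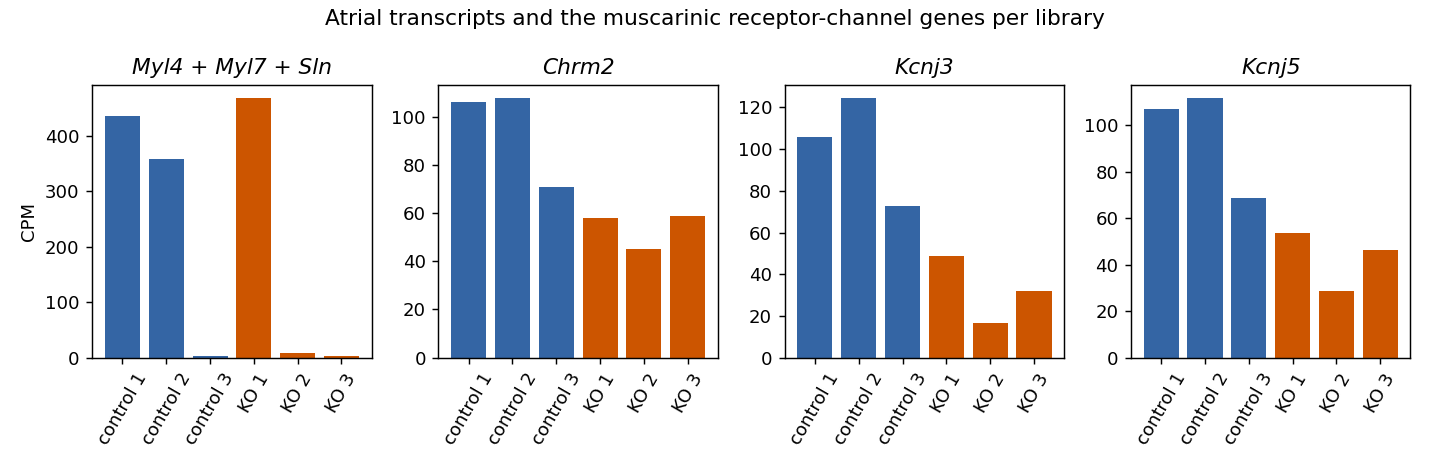
CPM in each of the 6 libraries of the summed atrial genes Myl4, Myl7 and Sln, of Chrm2, and of the potassium channel genes Kcnj3 and Kcnj5, with control in blue and libraries labelled KO in orange. The sum of Myl4, Myl7 and Sln is 357 to 468 CPM in control 1, control 2 and KO 1 and at most 7.75 CPM in the others. Chrm2, Kcnj3 and Kcnj5 are lower in KO 1 than in control 3.

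Of 12 tested genes of catecholamine and acetylcholine metabolism 0 rose and 2 fell (0 and 6 at an unadjusted p under 0.05, 0 and 5 by DESeq2). Maob, a mitochondrial monoamine oxidase, fell from 47.5 ± 6.64 to 22.2 ± 2.85 CPM, and Slc22a3, a transporter that takes up catecholamines outside neurons, from 6.88 ± 0.756 to 1.93 ± 0.279 CPM (edgeR adjusted p = 0.0246 and 0.0238). Their groups did not overlap. Transcripts of sympathetic neurons were sparse. Th had 0 reads in each control library and 0, 14 and 3 reads in KO 1, 2 and 3. Dbh was at 3.38, 2.17 and 1.70 CPM in control and at 1.42, 1.01 and 0.438 CPM in knockout. Its groups did not overlap, but it did not pass the test (log2 difference -1.33, edgeR adjusted p = 0.187).

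The genes whose log2(CPM + 1) followed each member most closely over the 6 libraries were taken from 9597 genes averaging 10 CPM or more. For Gpr22 they were Dbt, a subunit of the branched-chain ketoacid dehydrogenase, Arhgap26, a GTPase-activating protein, Aldh6a1, a methylmalonate semialdehyde dehydrogenase, Whrn, the scaffold whirlin, and Ldhd, the D-lactate dehydrogenase, with Pearson's r from 0.996 to 0.998. Dbt was at 119, 114 and 90.1 CPM in control and 47.5, 32.0 and 51.0 CPM in knockout, the same order of libraries as Gpr22. The closest genes were Gtpbp1 and Dhdds for Adrb1, Hsd17b4 and Adh5 for Adra1a, Mtif2 and Hspd1 for Adra1b, Gfm2 and Fars2 for Chrm2, Kank1 and Mrpl54 for Adcy5, Fitm2 and Fdx1 for Adcy6, Pdlim5 and Fhl1 for Grk5, and Zbed4 and Cxcl14 for Rgs2. Their r ran from 0.978 for Cxcl14 to 0.9996 for Mtif2. With 6 libraries that share the difference between genotypes and so many genes, values this high are a description of order only.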

How the data were processed

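Per the labels' protocols, a stranded total RNA kit was used. The submitters' processing notes name HISAT2, Bowtie2 and mm10 without saying what each did; no source used names the counting program, the annotation release or how strand was treated. The authors deposited read counts and FPKM values for 36780 transcripts. Columns beginning with C or KO were given to the control or knockout sample by title.

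Counts were summed per gene symbol and tested with the quasi-likelihood test of edgeR 4.0.16 under R 4.3.3 (TMM scaling, filterByExpr, Benjamini-Hochberg adjustment over 14466 genes). CPM are counts over library size and TMM factor. TPM were computed from the deposited FPKM. Transcript lengths are those of the deposited table. The test was checked on simulated counts. Members, lists and tests were chosen with earlier results of these data known. Named genes are the 9 members, all other adrenergic and muscarinic receptors, and of each other list up to 3 genes past the test (mean of at least 5 CPM) and the most abundant per length, some of which are not reported here; Kcnj3, Kcnj5, Gng8, Lpar1, Agtr1a and the other receptors, cyclases, enzymes and markers named only for their level or as neighbours were added after their values were seen. Nearest genes exclude pseudogenes, small RNAs and models known only by a clone or prediction number. Alternatives were DESeq2 1.42.0, limma 3.58.1 on log2(FPKM + 1) or log2(FPKM + 0.1), other scalings, no filter, the library number as a block, and libraries left out.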

Additional observations from a re-analysis of the deposited data

How the results depend on the processing

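Pathway genes outside the members numbered 10 higher and 5 lower, and all genes 378 and 157. Pathway counts were 19 and 24 by DESeq2 (1072 and 1244 over all genes), 5 and 3 by limma on log2(FPKM + 0.1), and 3 lower without a filter on low counts. All genes lower numbered 277 by limma on log2(FPKM + 1) and 94 on log2(FPKM + 0.1). With 1 library left out, counts ran from 0 to 29 and 0 to 33 for pathway genes and from 3 to 1719 and 0 to 1909 for all genes, the high ends without control 3 and the low ends over all genes without KO 3 (for genes lower, also without control 2). In the fits that gave 0, edgeR's unadjusted p was under 0.05 for 18 to 27 pathway genes higher and 22 to 32 lower. Without control 1 and control 2 together, which leaves 1 control library assumed to vary like the others, counts were 0 and 0 for pathway genes (24 and 15 unadjusted) and 25 and 6 for all.

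The library number as a block left 0 and 0 pathway genes (25 and 26 unadjusted) and 6 and 0 genes in all (1438 and 1400 unadjusted). For libraries of the same number, deviations from the group mean had r of 0.31, -0.33 and -0.35 across genes. Because the deviations in each group of 3 sum to 0, these values cannot decide if the numbers pair the libraries.

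Each member kept its direction in the 6 fits that leave out 1 library and under the other scalings, tools and filter. Library totals alone moved the median of all genes from 0.01 to 0.11. Relative to cardiomyocyte markers the differences of Adrb1, Adcy5, Adcy6 and Rgs2 reversed to 0.0442, 0.40, 0.23 and 0.13. That of Adcy5 also reversed to 0.19 without control 1 and control 2, and to 0.11 with control 3 against KO 2 and KO 3. The Adra1a share difference lay between -4.85 and 8.40 percentage points with 1 library left out and reversed without control 3 (-4.85) or KO 3 (-3.44). The cause was not tested. The members had 224 to 5224 reads per library, and what depth limits in them was not tested.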
